A study of Mus musculus with 8 samples.

Results

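The locus described here is a stretch of mouse chromosome 7 at the synaptotagmin gene Syt8 and, by the rule that chose it, its neighbour Tnni2. It was taken as every site of the deposited methylation table on chromosome 7 between positions 149610000 and 149635000, which gave 158 of 136069 sites. A site is a single position with a methylation level, the percent of calls at that position that were methylated. The window was chosen by measured values: the mean methylation gain of both lung metastasis groups over primary tumors, for which a region inside it ranked first among the 3083 regions of the table. Levels against the tumors are therefore given as a description, without a test.

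The samples were 3 lung metastases marked TVI, 3 lung metastases marked MFP and 2 primary mammary tumors marked MFP, all from BALB/c mice and all formed by 4T1, a single mammary carcinoma line. The labels do not spell out TVI or MFP, give no age, and do not state that the samples of one group are different mice. The p-values below therefore rest on the spread between samples, part of which could be technical. DNA methylation was read by bisulfite sequencing of the bulk tissue. A level averages over all cells and all chromosome copies in a sample, so more methylated cells and more methylation per cell cannot be told apart. The share of host lung cells in a metastasis was not measured.

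Syt8 encodes a synaptotagmin, a family of membrane proteins with C2 domains that act in vesicle trafficking and exocytosis. Tnni2 encodes troponin I of fast skeletal muscle, the inhibitory subunit of the complex that switches contraction on and off with calcium. In mammals methylation sits mostly on cytosines of CpG dinucleotides. Start sites of genes often lie in a stretch free of methylation while the DNA around them is methylated, and the edges of such stretches are places where tumor cells commonly change.

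The build of the coordinates was checked first, since the submitters' processing notes name mm10 while 557 of the 3166 chromosome 7 sites lie beyond the last gene of that assembly in RefSeq. RefSeq gives 3 promoter windows for Syt8, each from 250 bases before to 50 bases after an annotated start, holding 6 different CpGs. At 1 constant shift all 6 of these CpGs fell on deposited sites, and the next best shift on the chromosome matched 3. The locus thus holds the Syt8 starts, but the positions are not those of mm10 (GRCm38). Under this match the first annotated start coincides with the site at position 149620756, and distances below are counted from it. The table of RefSeq promoters had a window for Syt8 and none for Tnni2, so of the 2 genes in the rule only Syt8 was placed. In RefSeq's gene order Syt8 lies between the coding genes Ctsd and Tnni2. No genome of the deposited build was used, so sites are not assigned to exons or introns.

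The windows at the first and the last annotated start are shown because their CpGs placed the gene and because the sites in them can be read against the levels below. They are RefSeq sequences of GRCm38.p6, plus strand, 5′ to 3′, at chr7:142434600-142434899 and chr7:142436584-142436883 of that build, with each CpG in capitals.
Syt8 first start: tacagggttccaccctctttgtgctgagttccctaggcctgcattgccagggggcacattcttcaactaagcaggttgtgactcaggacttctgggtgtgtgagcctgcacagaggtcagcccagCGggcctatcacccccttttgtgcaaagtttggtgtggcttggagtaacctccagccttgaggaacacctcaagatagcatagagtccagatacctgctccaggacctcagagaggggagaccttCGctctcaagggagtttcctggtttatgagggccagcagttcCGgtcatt
Syt8 last start: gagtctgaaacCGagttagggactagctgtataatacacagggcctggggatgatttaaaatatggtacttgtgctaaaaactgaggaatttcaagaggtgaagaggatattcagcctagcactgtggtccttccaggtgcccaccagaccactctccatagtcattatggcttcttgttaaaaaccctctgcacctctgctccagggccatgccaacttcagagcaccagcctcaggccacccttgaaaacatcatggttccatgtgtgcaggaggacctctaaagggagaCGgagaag
The first window holds 3 CpGs and the last holds 2 in 300 bases. Of the 32851 RefSeq promoter windows of the same length, 31.4% hold at most 3 and 23.3% at most 2 (the motif CG reads the same on both strands), and the median window holds 7.

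The 158 sites ran from position 149611583 to 149630972, a span of 19390 bp. The nearest deposited site before them lay 7748 kb away and the nearest after them 1991 kb away, so the edges of the window divided no group of sites. Joining sites at most 500 bp apart gave 7 regions of 10 to 44 sites, and no group of fewer than 3 sites remained. Depth is unknown, because the table holds fractions without counts, and no interval or floor for a single sample could be given.

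The locus as a whole was more methylated in TVI metastases. Their excess over MFP metastases was larger in the regions upstream of Syt8 than in those downstream, and largest in the region that chose the locus. The mean over the 158 sites was 68.8%, 69.5% and 69.6% in the 3 TVI metastases, against 63.7%, 62.5% and 64.1% in the 3 MFP metastases and 60.6% and 60.3% in the 2 tumors. The 3 groups did not overlap, and MFP metastases lay between TVI metastases and tumors. TVI metastases exceeded MFP metastases by 5.83 points (exact permutation test, two-sided, p = 0.1, which is the smallest value for 3 against 3), and by 9.75 points when only sites from 5% to 95% were kept. Both metastasis groups are set against the same 2 tumors, 8.85 points above them in TVI and 3.02 points above them in MFP metastases. Outside the region with the largest gain, the other 148 sites averaged 68.4% ± 0.201 in the 3 TVI metastases, 65.0% ± 0.739 in the 3 MFP metastases and 62.7% ± 0.218 in the 2 tumors (mean ± SD).

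**Figure D1:**
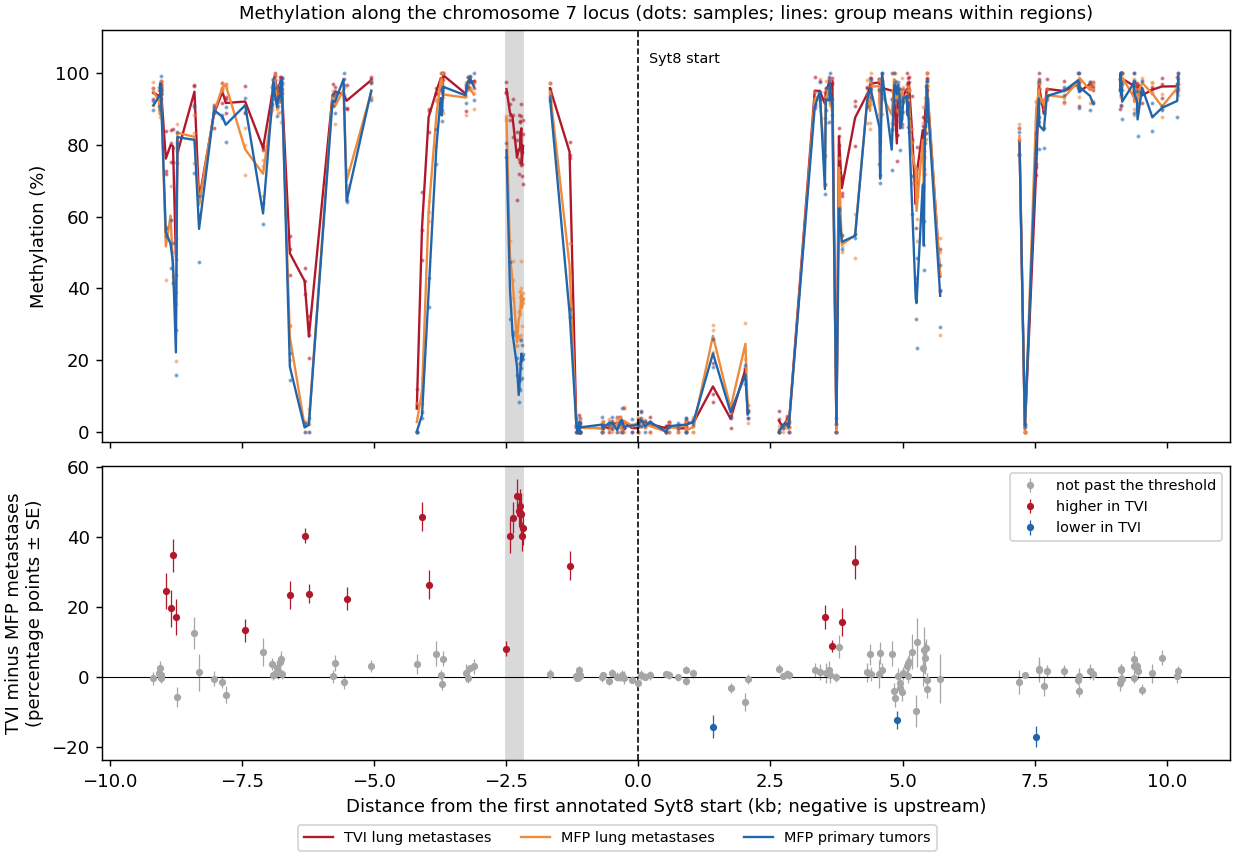
Methylation in percent (upper panel) and the TVI minus MFP metastasis difference in percentage points with its SE (lower panel) for the 158 sites, by distance in kb from the first annotated Syt8 start (dashed line). Dots in the upper panel are the 8 samples and lines are group means; the gray band is the region with the largest gain, where all 10 sites were higher in TVI metastases, while the sites on both sides of the start were near 0% in every group.

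Each site was compared between TVI and MFP metastases with limma over the whole table. This contrast did not choose the locus, although it uses the same metastases and its outcome here was already known. Its errors are independent of the metastasis gain that did only if both metastasis groups spread equally. In the region with the largest gain the SD was 5.61 points in TVI and 2.49 points in MFP metastases. At an adjusted p under 0.05 (Benjamini-Hochberg over all sites), 26 of the 158 sites (16.5%) were higher and 3 (1.90%) were lower in TVI metastases. Among all tested sites the shares called were 10.4% higher and 6.53% lower. The median difference was 1.12 points in the locus and 0.374 points over all sites. Of the 72 sites upstream of the first Syt8 start, 22 were called higher and 0 lower (adjusted over all sites; in the locus 42 sites had an unadjusted p under 0.05). Of these 22 sites, 10 lay in the region with the largest gain. Of the 86 sites at or after the start, 4 were called higher and 3 lower. Without the region with the largest gain, 16 of 148 sites (10.8%) were called higher, close to the share over the whole table.

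The region with the largest gain lay 2494 to 2179 bp upstream of the first Syt8 start, at positions 149618262 to 149618577, a length of 316 bp with 10 sites. Its mean level was 76.6%, 87.3% and 84.7% in the TVI metastases, against 42.5%, 38.3% and 42.7% in the MFP metastases and 26.3% and 27.3% in the tumors. The lowest TVI metastasis, replicate 1, stood below the other TVI metastases and still far above every MFP metastasis. TVI metastases averaged 82.9% ± 5.61, MFP metastases 41.2% ± 2.49 and tumors 26.8% ± 0.663 (mean ± SD of 3, 3 and 2 samples, as in all such values below). The gain over both metastasis groups, which chose the locus, was 35.2 points, and the next region in that order had 22.9 points. Between the metastasis groups the difference was 41.7 points (SE 2.62, limma adjusted p = 1.03e-05), larger than the spread within either group. Since the region was also known to lead this contrast, the value is no independent support for it. Joining sites up to 1000 bp apart merged the region with its neighbours, and the difference was then 7.04 points.

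**Figure D2:**
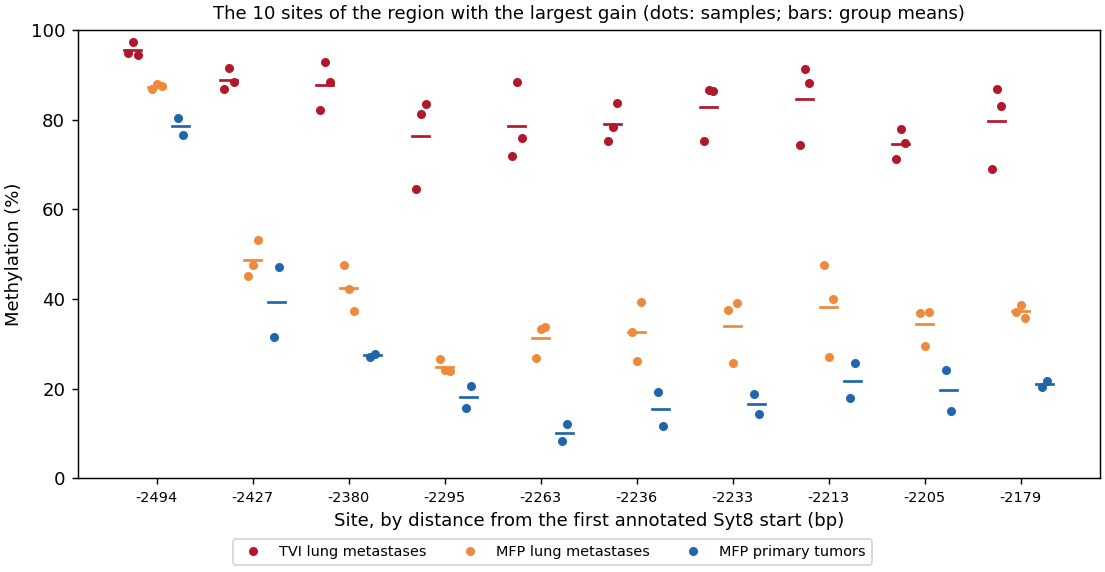
Methylation in percent at each of the 10 sites of the region with the largest gain, labelled by distance in bp from the first annotated Syt8 start; dots are samples and short bars group means. At every site the 3 TVI metastases lie above the 3 MFP metastases, and at 9 of the 10 sites the MFP metastases lie above both tumors.

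Within this region the sites behaved alike except for the outermost. At the site 2494 bp upstream (position 149618262) the level was already high in every sample, at 94.9%, 97.4% and 94.4% in TVI metastases, 86.8%, 87.9% and 87.5% in MFP metastases and 80.4% and 76.6% in tumors. Its difference between the metastasis groups was 8.16 points (adjusted p = 0.0153), a call lost without TVI metastasis replicate 2 (adjusted p = 0.0924). The other 9 sites differed by 40.1 to 51.5 points. The widest difference was at position 149618461, with 64.6%, 81.2% and 83.5% in TVI metastases, 26.5%, 24.3% and 24.0% in MFP metastases and 15.7% and 20.6% in tumors (51.5 points, SE 4.82, adjusted p = 2.07e-05). Here the MFP metastases sat just above the tumors, by 6.76 points.

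Position 149618493 showed a more even staircase. It had 71.8%, 88.4% and 76.0% in TVI metastases, 26.8%, 33.3% and 33.7% in MFP metastases and 8.33% and 12.1% in tumors. The step was 47.5 points between the metastasis groups (SE 4.59) and 21.0 points between MFP metastases and tumors. The remaining sites among the 5 widest in the locus were positions 149618523 (48.8 points), 149618543 (46.4 points) and 149618520 (46.4 points), so these 5 sites lie between 2295 and 2213 bp upstream of the start. Over the 10 sites, the 3 TVI metastases lay above the 3 MFP metastases without overlap at 10 (17.9% of all sites in the table did so) and above both tumors at 10 (26.4%). MFP metastases lay above both tumors at 9 (14.5% of all sites), the exception being position 149618329, where tumor replicate 2, at 47.3%, fell among MFP metastases at 45.2%, 47.7% and 53.2%. The counts against the tumors follow from how the locus was chosen.

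The stretch around the first annotated Syt8 start was nearly free of methylation in all 8 samples. The last annotated start, 1984 bp after the first, lies outside it. From 1172 bp upstream to 1042 bp downstream of the first start, 25 consecutive sites (positions 149619584 to 149621798) were under 10% in every sample, and the highest single value was 6.76%. The mean of these sites was 1.67% ± 0.143 in TVI metastases, 1.35% ± 0.448 in MFP metastases and 1.74% ± 0.362 in tumors. None of the 25 was called between the metastasis groups, and their differences ran from -1.55 to 2.19 points. The stretch was defined by low levels in every sample, TVI metastases included, so small differences within it follow from that definition. At the start itself (position 149620756) the level was 0%, 2.82% and 0% in TVI metastases, 3.70%, 3.77% and 0% in MFP metastases and 2.04% and 1.67% in tumors. The region with the largest gain therefore ended 1007 bp short of the unmethylated stretch.

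Between that region and the unmethylated stretch lay a pair of sites with different behavior. Position 149619086, 1670 bp upstream of the start, was almost fully methylated in every sample, at 92.2% to 97.4%. Position 149619455, 1301 bp upstream and next to the unmethylated stretch, had 77.1%, 80.7% and 76.4% in TVI metastases, 52.7%, 42.6% and 43.5% in MFP metastases and 34.3% and 32.0% in tumors. The groups did not overlap, and TVI metastases were 31.8 points above MFP metastases (SE 4.20, adjusted p = 0.000227). This site repeated the order TVI metastases, MFP metastases, tumors that marked the region with the largest gain.

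The called site nearest to the first start on its downstream side was lower in TVI metastases. Position 149622168, 1412 bp after the start, had 19.1%, 10.5% and 8.26% in TVI metastases, 22.1%, 28.4% and 29.7% in MFP metastases and 17.9% and 25.7% in tumors. It was lower in TVI than in MFP metastases (difference -14.13 points, SE 3.23, adjusted p = 0.00889), and the call was lost without TVI metastasis replicate 3 (adjusted p = 0.0544). At the last annotated Syt8 start, shown above, the window's sites are positions 149622501 and 149622782. The first had at most 7.48% in any sample. The second had 17.8%, 16.8% and 17.6% in TVI metastases, 30.3%, 20.3% and 22.9% in MFP metastases and 13.3% and 18.6% in tumors, a difference of -7.13 points between the metastasis groups that missed the threshold (adjusted p = 0.0950) but passed after quantile normalization (0.0182) and without MFP metastasis replicate 2 (0.0423). The region that holds all these start sites, of 31 sites, averaged 8.21% ± 0.384 in TVI metastases, 7.70% ± 0.530 in MFP metastases and 7.02% ± 0.0104 in tumors, and its difference of 0.509 points between the metastasis groups did not pass (SE 0.327, adjusted p = 0.228).

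**Figure D3:**
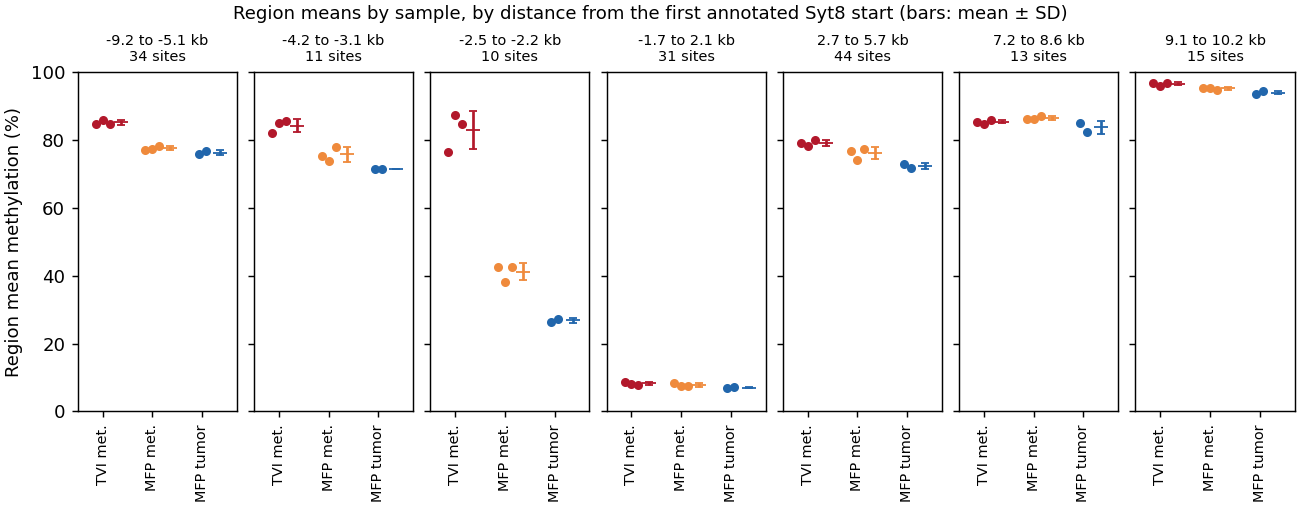
Mean methylation in percent of each of the 7 regions, one panel per region, ordered along the chromosome by distance from the first annotated Syt8 start; dots are the 8 samples and bars the mean ± SD of a group. TVI metastases stand far above the other groups in the region with the largest gain, and exceed the MFP metastases by 7.60 and 8.46 points in the regions farther upstream, while the mean of the region over the Syt8 starts is low in all samples.

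Farther upstream, both regions were higher in TVI metastases by smaller amounts. The region from 4191 to 3112 bp upstream (11 sites) had 82.1%, 85.0% and 85.6% in TVI metastases, 75.3%, 73.9% and 78.0% in MFP metastases and 71.5% and 71.6% in tumors. TVI metastases were 8.46 points above MFP metastases (SE 1.22, adjusted p = 0.000612). The most distant region, from 9173 to 5052 bp upstream (34 sites), had 84.8%, 86.0% and 84.8% in TVI metastases, 77.1%, 77.4% and 78.3% in MFP metastases and 75.8% and 76.9% in tumors. The difference was 7.60 points (SE 0.530, adjusted p = 1.47e-05). In neither region did the metastasis groups overlap. In the nearer region 7 of 11 sites were at 80% or more in every sample and 2 were called higher, and in the most distant region 21 of 34 were at that level and 9 were called higher.

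At some of those sites the MFP metastases were intermediate. At position 149616789, 3967 bp upstream of the start, the levels were 83.7%, 89.5% and 90.1% in TVI metastases, 61.2%, 58.8% and 64.4% in MFP metastases and 42.9% and 34.9% in tumors. MFP metastases were 22.6 points above the tumors, while TVI metastases were a further 26.3 points higher (SE 4.12, limma adjusted p = 0.000743). The order of the groups was that of the region with the largest gain, where the same steps were 14.3 and 41.7 points.

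At others the MFP metastases were low like the tumors, or closer to them than to the TVI metastases. Position 149614442, 6314 bp upstream, was at 45.7%, 42.0% and 38.5% in TVI metastases, 0%, 2.08% and 2.94% in MFP metastases and 2.33% and 0% in tumors. The TVI metastases were 40.4 points above the MFP metastases (SE 2.05, adjusted p = 8.87e-07), the smallest adjusted p in the locus, while MFP metastases differed from tumors by 0.512 points. Its neighbour at 149614524 had 26.9%, 32.2% and 20.5% in TVI metastases, against 0%, 2.04% and 6.33% in MFP metastases and 0% and 3.80% in tumors. Position 149616664, 4092 bp upstream, had 47.9%, 56.2% and 66.9% in TVI metastases, 7.69%, 11.0% and 15.1% in MFP metastases and 3.85% and 5.49% in tumors, a difference of 45.7 points between the metastasis groups (SE 4.10, adjusted p = 1.58e-05). There the MFP metastases lay 6.59 points above the tumors, without overlap.

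Some sites with intermediate levels in the MFP samples also differed in the most distant region. Others there did not pass, such as 149612446 (1.36 points, limma adjusted p = 0.931) and 149613657 (7.22 points, limma adjusted p = 0.306). Position 149611953, 8803 bp upstream, had 84.5%, 79.2% and 75.3% in TVI metastases, 41.4%, 43.3% and 50.0% in MFP metastases and 52.6% and 41.5% in tumors. The TVI metastases were 34.7 points above the MFP metastases (SE 4.69, adjusted p = 0.000263), whose values overlapped the tumors. The sites on either side of it, 149611817, 149611907 and 149612008, were higher in TVI metastases by 24.5, 19.7 and 17.2 points and also passed. The lowest difference in this region was at 149612036, at 77.7% ± 2.40 in TVI metastases, 83.4% ± 2.29 in MFP metastases and 82.2% ± 2.17 in tumors, which did not pass (adjusted p = 0.260).

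Downstream of the start the differences in region means were small and mixed, while single sites differed more, as given below. The region from 2661 to 5711 bp after the start (44 sites) had 79.1%, 78.4% and 79.9% in TVI metastases, 76.9%, 74.3% and 77.3% in MFP metastases and 73.0% and 71.7% in tumors. TVI metastases were 2.96 points above MFP metastases (SE 0.879, adjusted p = 0.0220). This call did not hold without TVI metastasis replicate 1 (adjusted p = 0.0512) or replicate 3 (0.0753), nor after quantile normalization (0.115). The region from 7211 to 8599 bp (13 sites) averaged 85.4% ± 0.489 in TVI metastases, 86.5% ± 0.573 in MFP metastases and 83.8% ± 1.82 in tumors, without passing (difference -1.07, adjusted p = 0.225). The last region, from 9116 to 10216 bp (15 sites), was nearly fully methylated throughout, at 96.6% ± 0.443 in TVI metastases, 95.2% ± 0.319 in MFP metastases and 94.0% ± 0.476 in tumors (1.35 points between the metastasis groups, SE 0.350, adjusted p = 0.0124).

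In the 3 downstream regions 4 sites were called higher, all of them in the region from 2661 to 5711 bp, and 2 were called lower. The last region passed as a mean with none of its sites called. Position 149624857, 4101 bp after the start, had 79.7%, 92.3% and 90.8% in TVI metastases, 55.1%, 48.5% and 60.8% in MFP metastases and 55.1% and 54.2% in tumors (32.8 points between the metastasis groups, SE 4.74, adjusted p = 0.000426). The other rises, at 149624286, 149624606 and 149624427, were of 17.2, 15.8 and 8.90 points. Position 149628284, 7528 bp after the start, had the largest fall in the locus, with 73.8%, 71.7% and 74.6% in TVI metastases, 86.7%, 92.3% and 91.9% in MFP metastases and 83.3% and 77.8% in tumors (difference -16.90, SE 2.95, adjusted p = 0.00155). Position 149625647 had 80.4% ± 4.17 in TVI metastases, 92.6% ± 2.63 in MFP metastases and 94.1% ± 2.16 in tumors (difference -12.21, adjusted p = 0.00499).

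The widest MFP metastasis difference from the tumors was at position 149626004, 5248 bp after the start, at 66.1%, 56.8% and 67.4% in TVI metastases, 73.1%, 73.7% and 72.3% in MFP metastases and 42.9% and 31.4% in tumors. MFP metastases were 35.9 points above the tumors there, and TVI metastases did not pass against MFP metastases (difference -9.59, adjusted p = 0.234). The next was its neighbour 149626019, with 69.4%, 65.8% and 79.4% in TVI metastases, 59.3%, 53.3% and 72.1% in MFP metastases and 48.4% and 23.3% in tumors. TVI metastases were 9.97 points above MFP metastases there, which did not pass (adjusted p = 0.472). The tumors themselves lay far apart at that site. The others of the 5 widest were 149616789, 149618493 and 149618523, described with the upstream regions.

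Counted by region, 5 of 7 were higher in TVI than in MFP metastases (limma, adjusted over 3083 regions), against 42.0% of regions called higher in the table. None of the 7 was called lower, where the table had 13.8%, while after quantile normalization 1 region was lower. With joining up to 1000 bp neighbouring regions merged, so the locus had fewer of them, and 1 was higher. The median region difference was 2.96 points in the locus and 0.837 points over all regions.

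Differences were also read by the level of a site in the tumors. Of 28 sites over 20% and under 80% in the tumors, 15 were higher and 1 lower in TVI than in MFP metastases, with a median difference of 12.9 points. Of the 22159 sites of the table in that class, 36.4% were higher and 16.3% lower, with a median of 6.64 points. Without the region with the largest gain, 10 of 23 such sites in the locus (43.5%) were higher, with a median of 8.71 points. Of the 44 sites at 20% or less in the tumors, 9 were higher and 0 lower. Over all sites of this class 13.3% were higher and 2.93% lower, and without the region with the largest gain 4 of 39 in the locus (10.3%) were higher. Of the 86 sites at 80% or more, 2 (2.33%) were higher and 2 lower, against 2.31% higher and 5.27% lower in the whole table. The classes were set on the tumors alone, which take no part in the TVI against MFP difference, but after the values had been seen, so the shares are a description.

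**Figure D4:**
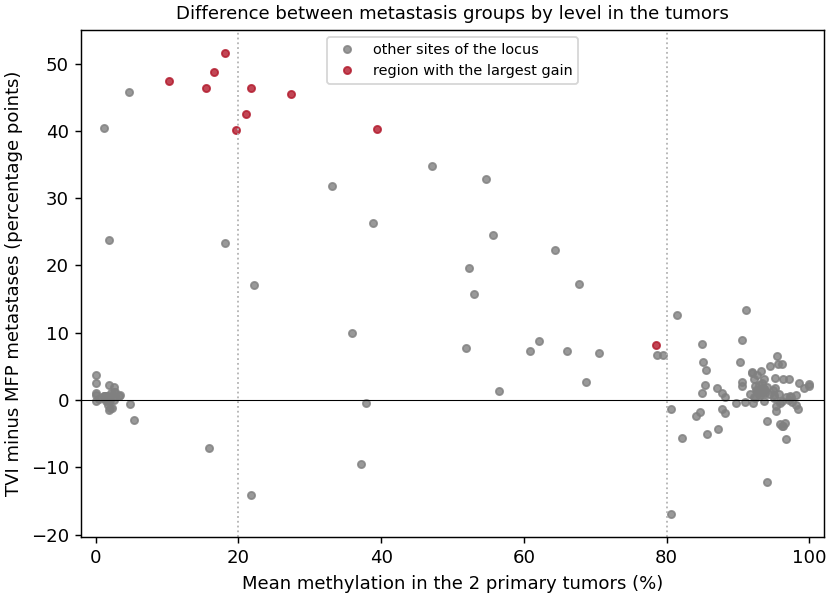
Difference between TVI and MFP metastases in percentage points against the mean level in the 2 primary tumors in percent, one dot per site of the locus, with the region of the largest gain in red and the class limits of 20% and 80% dotted. Sites near 0% in the tumors mostly stayed near 0 difference, sites at 80% or more stayed between -16.90 and 13.3 points, and the largest differences came from sites of low or partial methylation.

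The regions elsewhere whose 8 sample means were most like those of the region with the largest gain differed from it by 10.5 to 12.2 points (root mean square over the 8 samples). The closest lay on chromosome 11 from 117810330 to 117810585 (9 sites), at 75.5% ± 2.20 in TVI metastases, 47.2% ± 1.93 in MFP metastases and 43.3% ± 0.477 in tumors. It was followed by chromosome 14 from 56384689, chromosome 11 from 7032420, chromosome 6 from 86066664 and chromosome 14 from 8772493. In these 5 regions TVI metastases were 23.5 to 28.3 points above MFP metastases, and MFP metastases stood between -2.13 and 6.51 points from the tumors, against 14.3 points in the region upstream of Syt8. That last value is part of the gain that chose the locus, so its larger size is a description and sets the region apart in no tested way.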

How the data were processed

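Bulk DNA (ZR-Duet miniprep) was bisulfite converted (EZ-DNA Methylation Gold) and sequenced, per the labels' protocols. Trimmomatic, Bismark and mm10 are named in the submitters' processing notes, with no setting. The sources used here give neither how positions were selected nor a minimum of coverage. The deposited table holds beta values per the file headers: for each position and sample, a fraction from 0 to 1 of methylated calls. Fractions were used as deposited, times 100, and 0 columns belonged to no sample. The table had no missing value and no pair of identical samples.

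All 136069 sites entered the fit, of which 135914 varied between samples. limma 3.58.1 in R 4.3.3 fitted 1 mean per group over all 8 samples with a variance trend; tests were two-sided, adjusted by Benjamini-Hochberg, with a threshold of 0.05. Sites no more than 500 bp from the next were joined, and regions of at least 3 sites were fitted by their means. Single values were compared by exact permutation (scipy 1.17.1). The fit was also run on simulated data with independent noise, where only the mean estimated size of known changes was checked. That run gives no error rate for these data. Named sites are the highest and lowest TVI minus MFP difference of each region, the 5 highest and 5 lowest in the locus, and the 5 highest MFP metastasis differences from the tumors; other sites named in the text were chosen after their values were seen. The members, lists and rules were chosen with earlier results of these data known. Lists of neighbouring genes, gene families and cell type markers need a reference of the deposited build and were not used here. Alternatives were quantile normalization, a log2 odds scale, no trend, metastases only, a replicate block, a filter on level, other joining rules and leaving out each sample.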

Additional observations from a re-analysis of the deposited data

Results flagged for a closer look

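TVI and MFP metastases departed unequally from the same tumors at 5 regions and 14 named sites. The limma contrast between the metastasis groups measures this inequality directly, because the tumors cancel in it. Most of the named sites were chosen by the size of that same difference, so their count is a description and no test. Among all tested sites 10.4% were called higher and 6.53% lower in TVI metastases. Among all regions 42.0% were called higher and 13.8% lower. For the regions, TVI metastases exceeded MFP metastases by 7.60 points from 149611583, 8.46 points from 149616565, 41.7 points from 149618262, 2.96 points from 149623417 and 1.35 points from 149629872. For sites the excess was 40.4 points at 149614442, 45.7 at 149616664, 26.3 at 149616789, 8.16 at 149618262, 51.5 at 149618461, 47.5 at 149618493, 46.4 at 149618520, 48.8 at 149618523, 46.4 at 149618543, 31.8 at 149619455 and 32.8 at 149624857. It was negative at 149622168 (-14.13 points), 149625647 (-12.21 points) and 149628284 (-16.90 points). The groups have 2 or 3 samples, too few to single out a sample within one.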

How the results depend on the processing

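Leaving out 1 sample gave 23 to 28 sites and 4 to 5 regions higher, and 2 to 4 sites and 0 regions lower, in TVI metastases. The locus mean difference between the metastasis groups then ran from 5.36 to 6.17 points, from 8.68 to 9.11 points for TVI metastases against tumors and from 2.68 to 3.49 points for MFP metastases against tumors. In the region with the largest gain the same differences ran from 39.5 to 44.9, 53.8 to 59.2 and 13.6 to 15.8 points. Quantile normalization gave 6.93 and 2.20 points for the locus mean of TVI and of MFP metastases against tumors, 51.6 points for TVI metastases against tumors in the region with the largest gain, and 1 region lower in TVI metastases (from 149627967, limma adjusted p = 0.0317). Between the metastasis groups it lowered the difference to 4.73 points for the locus mean and to 38.5 points for the region with the largest gain. With sites from 5% to 95% only, the locus means of TVI and MFP metastases were 15.0 and 5.24 points above the tumors, and 9.75 points apart. Joining sites up to 1000 bp apart merged the region with the largest gain into its neighbours, for 10.3 and 3.25 points against the tumors, 7.04 points between the metastasis groups and 1 region higher. The region with the largest gain passed between the metastasis groups in all 15 alternatives that kept the joining distance (adjusted p from 1.41e-06 to 0.000151), as did the most distant upstream region. Same-numbered samples did not deviate together (correlations from -0.0037 to 0.0172), so the numbers were not taken as pairs; with the replicate block limma called 26 sites and 5 regions higher and 3 sites lower, and sign flips of the 3 differences gave p = 0.25, the smallest possible, for both means. Depth is unknown, so the precision of single values cannot be given.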

Other observations

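A pair of sites stood out from their surroundings after the values had been seen. Position 149624504, 3748 bp after the first Syt8 start, had at most 3.85% in any of the 8 samples. The sites next to it, 149624427 and 149624551, were at 61.8% or more in every sample, the first of them at 97.8% ± 0.863 in TVI metastases, 88.9% ± 2.07 in MFP metastases and 90.5% ± 3.11 in tumors. Position 149628069, 7313 bp after the start, had at most 2.0% in any sample, in a region whose mean was above 80% in every sample. Neither differed between TVI and MFP metastases (limma adjusted p = 0.999 and 0.788). The sequence at these positions was not read, so whether they are CpGs in the sampled genomes was not tested.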
